A study of Mus musculus with 6 samples.

Results

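The p53 group consisted of 10 mouse genes taken by symbol from a fixed list: Trp53, which encodes the transcription factor p53, and 9 of its target genes, Mdm2, Ccng1, Phlda3, Eda2r, Zmat3, Trp53inp1, Bbc3, Pmaip1 and Bax. All 10 were found once each among the 55487 genes of the table, and all 10 were among the 18766 genes that entered the test, whose mean value was 3 or more. The rule that picks them uses symbols, not measured values, but the 10 genes were chosen with earlier results of these data known. The counts of calls among them are therefore descriptive. RNA was measured in 6 libraries of mouse bone marrow cells selected as cKit+, that is, for the stem cell factor receptor found on blood stem cells and progenitors. The WT libraries (n = 3) came from cells given a lentivirus for MLLT3 without substitutions, and the DM libraries (n = 3) from cells given MLLT3 with K63E and K67E. MLLT3 is a chromatin reader of elongation complexes. In both groups the cells were sorted and then grown for 8 days in methylcellulose with 4-hydroxytamoxifen at 200 nM, so that endogenous Mllt3 was targeted for deletion in the WT libraries too. The medium held mFlt3L at 10 ng/mL, with mIL-3, mIL-6, mIL-11, mGMCSF, mSCF, hEPO and hTPO at 20 ng/mL each, and gentamycin at 50 µg/mL. The labels put all libraries in batch 1 and do not give the strain, sex or age of the mice, the Cre driver or the promoter of the vector. They do not say whether replicates came from separate mice, so p-values measure only the spread between these libraries, which may be technical.

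In unstressed cells p53 protein is held low by MDM2, a ubiquitin ligase that binds it and marks it for destruction. Stress such as DNA damage releases p53, which then acts as a tetramer on response elements made of a pair of half-sites and raises genes for cell cycle arrest, repair, growth restraint and apoptosis, Mdm2 itself among them. Because p53 is controlled mainly as a protein, the RNA of its targets is commonly read as a sign of its activity, and the RNA of Trp53 is not. In bone marrow, p53 limits the expansion of stem and progenitor cells and drives their death after irradiation.

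The starts of 5 of these genes are shown because the group is defined by a DNA-binding factor: the 4 genes that rose in DM and had a promoter window, and Trp53 for contrast. Windows from 250 bases before to 50 bases after the start were taken from RefSeq on GRCm38.p6, and 7 of the 10 genes matched by symbol. The p53 half-site was searched, which has a core of C, A or T at both middle positions, and G, flanked by purines on the 5′ side and pyrimidines on the 3′ side. It reads the same on both strands. The 250 bases before each start are given 5′ to 3′ on the strand of the gene, with exact half-sites in capitals. They are chr10:117710759-117711008 (minus strand) for Mdm2, chr11:40755287-40755536 (minus strand) for Ccng1, chr7:45466899-45467148 (minus strand) for Bax, chr1:135765835-135766084 (plus strand) for Phlda3 and chr11:69580109-69580358 (plus strand) for Trp53.
Mdm2: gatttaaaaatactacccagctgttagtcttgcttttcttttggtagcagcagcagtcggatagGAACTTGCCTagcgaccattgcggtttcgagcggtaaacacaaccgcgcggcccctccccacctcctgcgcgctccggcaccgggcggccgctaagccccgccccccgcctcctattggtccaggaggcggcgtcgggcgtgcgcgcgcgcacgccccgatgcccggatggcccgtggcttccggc
Ccng1: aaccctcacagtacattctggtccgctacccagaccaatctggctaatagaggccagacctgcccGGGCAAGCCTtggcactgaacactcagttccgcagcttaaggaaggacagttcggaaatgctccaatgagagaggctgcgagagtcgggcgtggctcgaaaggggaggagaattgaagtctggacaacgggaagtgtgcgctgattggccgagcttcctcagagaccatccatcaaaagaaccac
Bax: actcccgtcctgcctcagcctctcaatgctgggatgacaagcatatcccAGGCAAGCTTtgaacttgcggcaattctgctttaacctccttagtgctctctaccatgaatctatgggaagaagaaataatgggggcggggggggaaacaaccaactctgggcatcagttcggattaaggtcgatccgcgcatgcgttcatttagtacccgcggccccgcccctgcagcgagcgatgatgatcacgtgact
Phlda3: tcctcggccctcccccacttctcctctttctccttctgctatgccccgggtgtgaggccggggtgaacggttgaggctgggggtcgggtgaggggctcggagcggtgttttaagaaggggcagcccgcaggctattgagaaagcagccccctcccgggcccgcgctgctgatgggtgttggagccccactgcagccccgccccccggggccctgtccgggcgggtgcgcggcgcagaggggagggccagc
Trp53: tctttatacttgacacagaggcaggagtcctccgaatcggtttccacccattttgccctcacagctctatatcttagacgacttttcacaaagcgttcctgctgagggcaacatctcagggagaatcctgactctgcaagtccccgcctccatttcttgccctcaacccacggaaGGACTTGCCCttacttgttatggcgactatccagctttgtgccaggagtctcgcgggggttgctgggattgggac

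Exact half-sites were present in 4 of the 7 genes with a window, that is, in 4 of their 9 windows. The half-site of Mdm2 was GAACTTGCCT, starting 186 bases before the start. That of Ccng1 was GGGCAAGCCT at 185 bases, that of Bax AGGCAAGCTT at 201 bases and that of Trp53 GGACTTGCCC at 75 bases. No exact half-site was in the windows of Phlda3, Eda2r or Bbc3, the last with 3 annotated starts. Of all 32851 promoter windows of the same length, 8.36% held an exact half-site. A pair of exact half-sites within a spacer of up to 13 bases was in 0.0731% of all windows and in none of these genes. A pair with up to 1 mismatch per half-site, allowed only outside the core, was in 1.39% of all windows and again in none. That search passes over any mismatch in the core. In Ccng1 the bases directly before the marked half-site read agacctgccc, a half-site but for 1 core base, C in place of A or T. How many of all windows hold such a pair was not counted. Response elements of p53 often lie in introns or farther upstream, outside these windows, and a match or its absence here describes letters only.

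Levels are given as rlog values (DESeq2's regularized logarithm, base 2, as deposited), in which 1 unit is a doubling and low genes are pulled toward their mean. They hold no counts, so depth is unknown. The median over tested genes lay between 8.03 and 8.11 in the 6 libraries. Mllt3, which is both targeted and supplied by the vector, ranged from 12.44 to 12.87 in WT and from 11.99 to 12.44 in DM. It was called lower in DM by -0.48 (SE 0.137, limma adjusted p 0.0448), but lost that call in 7 of 13 alternatives, among them leaving out WT replicate 1 (-0.36, adjusted p 0.152), WT replicate 2 (-0.5, 0.0606), DM replicate 2 (-0.42, 0.15) or DM replicate 3 (-0.4, 0.161). Its values do not check the deletion, and the part of this difference in the results given here was not tested. The labelled cells had Kit from 14.29 to 14.9, Cd34 from 12.02 to 12.64 and Ptprc, the pan-leukocyte CD45, from 13.63 to 14. Markers of maturing myeloid cells were also present after the culture. Lyz2 of monocytes and macrophages was at 17.6 to 18.28 in WT and 18.57 to 19 in DM. Mpo of neutrophil precursors was at 14.09 to 15.3 in WT and 9.57 to 11.1 in DM. Cpa3 of mast cells was at 17.6 to 17.97 in WT and 17.81 to 18.26 in DM. Bulk levels of Kit and Cd34 do not tell which cells of the culture carried them. In bulk RNA, fewer cells of a type and less RNA per cell cannot be told apart.

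Of the 10 genes, 5 rose in DM: Phlda3, Zmat3, Mdm2, Ccng1 and Bax. Over all tested genes 9.2% were called higher in DM (limma, adjusted p under 0.05) and 4.71% lower, and none of the 10 was called lower. The 5 rises were of 1.23-fold to 1.36-fold. The other 5, Trp53, Trp53inp1, Bbc3, Pmaip1 and Eda2r, had changes from -0.03 to 0.14 on the log2 scale and did not pass the test. Counted by sign, 9 of the 10 had a higher mean in DM, against 51.6% of all tested genes. That count was 7 after quantile normalization, 8 with library medians centred and 7 without WT replicate 3. Their median change was 0.22, against 0.01 over all tested genes. The values of the 3 DM libraries all lay above those of the 3 WT libraries for 5 of the 10 genes, as they did for 21.5% of all tested genes.

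**Figure D1:**
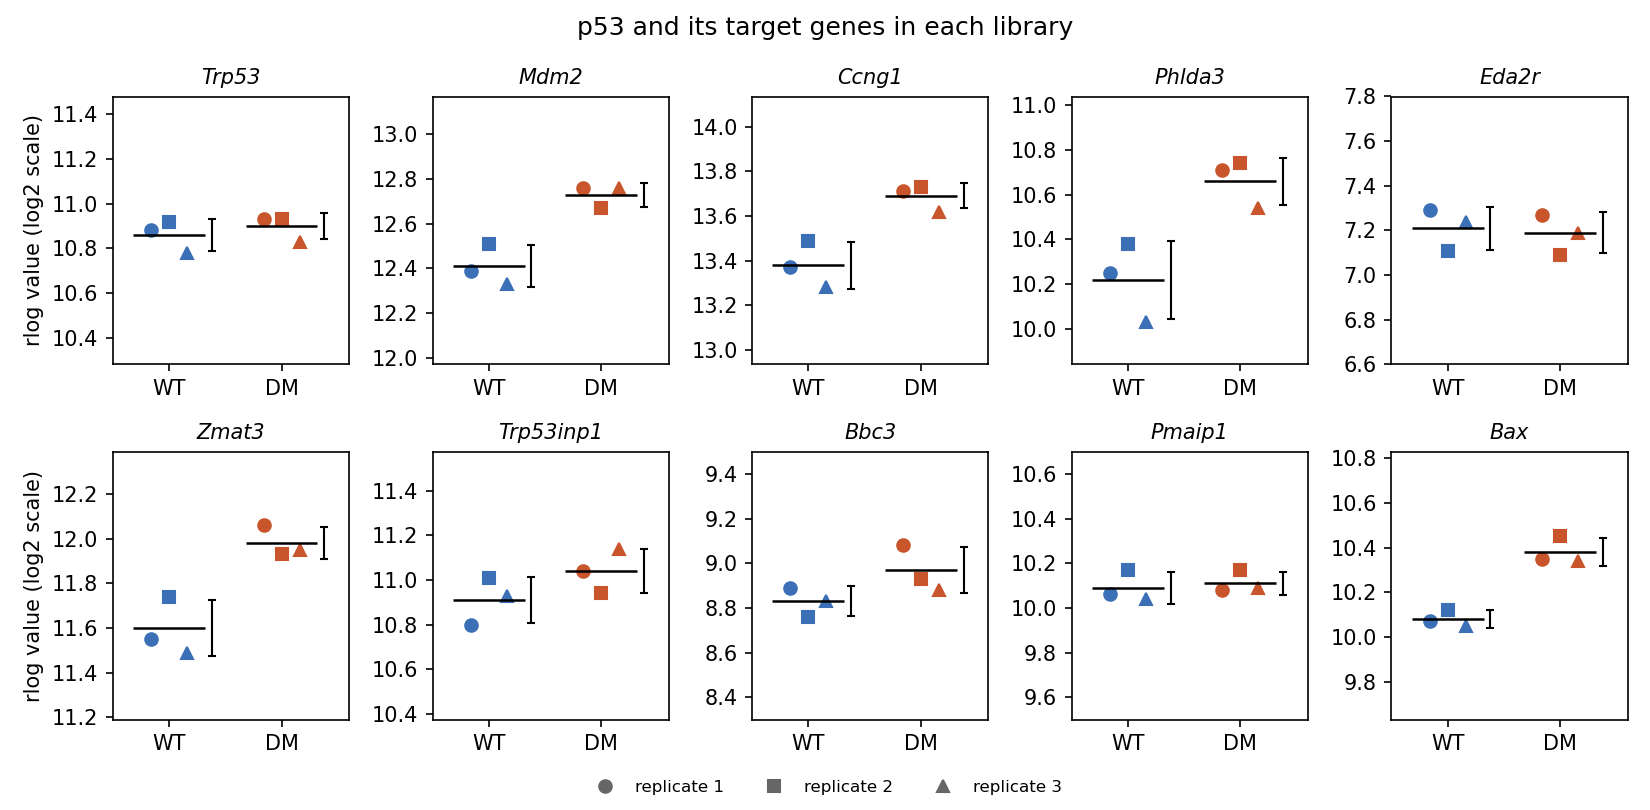
The rlog value of p53 and its 9 targets in each library, with WT in blue and DM in orange, 1 marker shape per replicate number, a line at the group mean and a bar of 1 SD beside it. Every panel spans the same range on the log2 scale; for Mdm2, Ccng1, Phlda3, Zmat3 and Bax all DM libraries lie above all WT libraries, and for Trp53, Eda2r, Trp53inp1, Bbc3 and Pmaip1 the groups overlap.

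Trp53 (ENSMUSG00000059552.13; chromosome 11, 69580359 to 69591873, plus strand) did not pass the test. In order of replicate number, as for all genes here, the WT libraries read 10.88, 10.92 and 10.78, and the DM libraries 10.93, 10.93 and 10.83. The groups overlapped, and the lowest library of each was replicate 3. The change was 0.04 (SE 0.0688, limma adjusted p 0.738), with a 95% interval from -0.11 to 0.19, so a rise as large as that of Phlda3 lies outside the interval. The sign turned after quantile normalization, where the change was -0.07.

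Mdm2 (ENSMUSG00000020184.15; chromosome 10, 117688875 to 117710758, minus strand), the ligase that closes the feedback loop on p53, rose. Its values were 12.39, 12.51 and 12.33 in WT and 12.76, 12.67 and 12.76 in DM. The lowest DM library, replicate 2, stood above the highest WT library, also replicate 2. The mean went from 12.41 ± 0.0934 (SD, n = 3) to 12.73 ± 0.0536 (SD, n = 3), a change of 0.32 (SE 0.075, limma adjusted p 0.02) or 1.25-fold. The size was 0.31 to 0.35 without WT replicate 1 or any DM replicate, but each of these fits ended the call. The adjusted p rose to 0.0866 with WT replicate 1 left out, and to 0.0657, 0.0534 and 0.0808 with DM replicates 1, 2 and 3 left out in turn. After quantile normalization the change was 0.2 (adjusted p 0.0292), over 1.5 times smaller.

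Ccng1 (ENSMUSG00000020326.7; chromosome 11, 40748552 to 40755311, minus strand) encodes cyclin G1, which recruits the phosphatase PP2A to MDM2. Its values were 13.37, 13.49 and 13.28 in WT and 13.71, 13.73 and 13.62 in DM, without overlap. The mean rose from 13.38 ± 0.105 to 13.69 ± 0.056 (SD, n = 3 each), a change of 0.3 (SE 0.0808, limma adjusted p 0.0342). Of the 5 calls this one was lost most often, in 7 of 13 alternatives. After quantile normalization the change was 0.11 (adjusted p 0.182), and the call was also lost without WT replicate 1 (0.3, adjusted p 0.124), WT replicate 3 (0.26, 0.0865), DM replicate 1 (0.29, 0.101), DM replicate 2 (0.28, 0.132) or DM replicate 3 (0.34, 0.0714).

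Of the genes that restrain growth or process RNA, Phlda3 and Zmat3 rose and Trp53inp1 did not pass the test. Phlda3 (ENSMUSG00000041801.5; chromosome 1, 135766119 to 135769136, plus strand) encodes a small PH-domain protein that competes with AKT for membrane lipids. Its values were 10.25, 10.38 and 10.03 in WT and 10.71, 10.74 and 10.54 in DM, with replicate 3 lowest in each group and no overlap. The mean went from 10.22 ± 0.175 to 10.66 ± 0.105 (SD, n = 3 each), a change of 0.44 (SE 0.0959, limma adjusted p 0.0156). At 1.36-fold this was the largest change of the 10. It was 0.35 after quantile normalization (adjusted p 0.0108) and 0.4 without DM replicate 2, where the call was lost (adjusted p 0.066).

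Zmat3 (ENSMUSG00000027663.12; chromosome 3, 32334792 to 32366014, minus strand) encodes a zinc-finger protein that binds RNA and affects splicing. Its values were 11.55, 11.74 and 11.49 in WT and 12.06, 11.93 and 11.95 in DM. The gap between the highest WT and the lowest DM library was narrower than the spread within WT, but the groups did not overlap. The mean went from 11.6 ± 0.127 to 11.98 ± 0.0703 (SD, n = 3 each), a change of 0.39 (SE 0.0814, limma adjusted p 0.0138) or 1.31-fold, the smallest adjusted p of the 10. Without WT replicate 1 the change was 0.36 and the call was lost (adjusted p 0.0619).

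Trp53inp1 (ENSMUSG00000028211.11; chromosome 4, 11156431 to 11174379, plus strand) encodes a stress protein of the nucleus and of autophagosomes. Its values were 10.8, 11.01 and 10.93 in WT and 11.04, 10.94 and 11.14 in DM. The groups overlapped, since DM replicate 2 lay below WT replicate 2. The change was 0.13 (SE 0.0799, limma adjusted p 0.314), with an interval from -0.05 to 0.31.

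**Figure D2:**
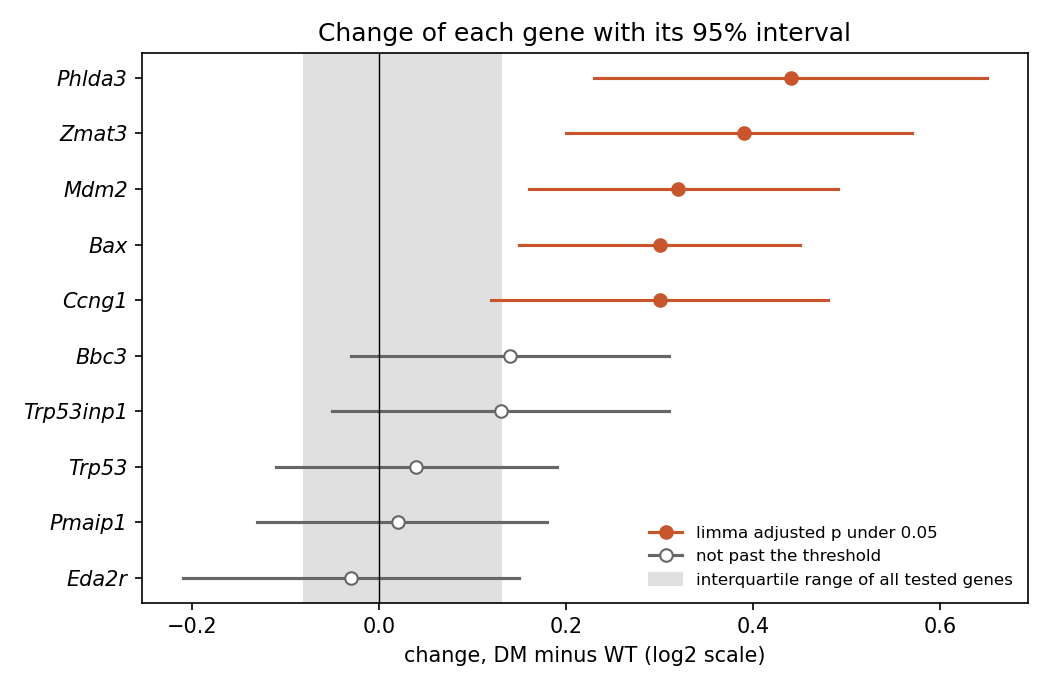
Change of each of the 10 genes (DM minus WT, log2 scale) with its 95% interval from limma, filled where the adjusted p was under 0.05. The grey band, from -0.08 to 0.13, is the interquartile range of all tested genes; the points of Phlda3, Zmat3, Mdm2, Bax and Ccng1 lie beyond it, from 0.3 to 0.44.

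Among the 3 genes of the mitochondrial death pathway, Bax rose and both BH3-only genes did not pass the test. Bax (ENSMUSG00000003873.11; chromosome 7, 45461697 to 45466898, minus strand) encodes the pore former of the outer mitochondrial membrane. Its values were 10.07, 10.12 and 10.05 in WT and 10.35, 10.45 and 10.34 in DM. Both groups were tight and did not overlap. The mean went from 10.08 ± 0.0393 to 10.38 ± 0.0626 (SD, n = 3 each), a change of 0.3 (SE 0.0655, limma adjusted p 0.0156) or 1.23-fold. The call was lost without WT replicate 1 (0.3, adjusted p 0.0669) and without DM replicate 2 (0.26, adjusted p 0.0803). Gm45808, a gene model on the same strand that shares exon sequence with Bax, was listed at 0 in all 6 libraries, and how reads of the shared exons were assigned is not stated.

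Bbc3 (ENSMUSG00000002083.13; chromosome 7, 16308393 to 16318205, plus strand) encodes PUMA, a BH3-only protein that binds the survival proteins of the BCL2 family. Its values were 8.89, 8.76 and 8.83 in WT and 9.08, 8.93 and 8.88 in DM. Only DM replicate 3 fell within the WT range. The change was 0.14 (SE 0.0762, limma adjusted p 0.255), with an interval from -0.03 to 0.31. Its upper bound just exceeds the change of Bax.

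Pmaip1 (ENSMUSG00000024521.8; chromosome 18, 66458533 to 66465565, plus strand) encodes NOXA, the BH3-only partner of MCL1. Its values were 10.06, 10.17 and 10.04 in WT and 10.08, 10.17 and 10.09 in DM, nearly the same by replicate number. The change was 0.02 (SE 0.0679, limma adjusted p 0.843), with an interval from -0.13 to 0.18. Its sign turned under quantile normalization (-0.06) and with library medians centred (-0.01).

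Eda2r (ENSMUSG00000034457.10; chromosome X, 97333840 to 97377216, minus strand) encodes a receptor of the TNF receptor family for ectodysplasin A2. Its values were 7.29, 7.11 and 7.24 in WT and 7.27, 7.09 and 7.19 in DM, and the order of the replicates was the same in both groups. The change was -0.03 (SE 0.0795, limma adjusted p 0.835), with an interval from -0.21 to 0.15. This was the 1 gene of the 10 with a lower mean in DM.

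Levels between genes were set side by side only after subtracting the log2 of the summed exon length in kilobases. On that per-kilobase log2 scale Ccng1 stood highest, with a mean level of 11.57 in WT and 11.87 in DM. Mdm2 (10.06 and 10.39), Phlda3 (9.58 and 10.02) and Bax (9.43 and 9.73) followed. Phlda3 and Bax overlapped in WT, where their values ran from 9.39 to 9.74 and from 9.39 to 9.47, but not in DM, where they ran from 9.9 to 10.1 and from 9.69 to 9.8. Trp53 (8.84 and 8.88), Pmaip1 (8.64 and 8.66), Trp53inp1 (8.22 and 8.34), Zmat3 (8.08 and 8.47) and Bbc3 (7.74 and 7.88) came next. Trp53inp1 and Zmat3 overlapped in both groups, and their means changed places between WT and DM. Eda2r was far below the others, at 4.66 and 4.63. The highest 4 genes of this order were all among the 5 that rose, and Zmat3 was the 1 gene that rose from the lower part of it.

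Within WT, replicate 2 held the highest value for 8 of the 10 genes and replicate 3 the lowest for 7. Within DM the order was mixed, with the highest value in replicates 1, 2 and 3 for 3, 5 and 2 genes and the lowest for 1, 4 and 5. The mean of the 10 genes, each centred on its own 6-library mean, was -0.11, -0.04 and -0.16 across the WT replicates, and 0.14, 0.1 and 0.07 across the DM replicates. All WT libraries were thus below all DM libraries, and the nearest pair was WT replicate 2 and DM replicate 3. Since 5 of the 10 genes had every DM value above every WT value, this order is not separate evidence.

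The profile of Zmat3, the gene with the smallest adjusted p, was compared with those of all tested genes by Euclidean distance over the 6 centred values. The 3 nearest genes were Pi4ka, which encodes a phosphatidylinositol kinase, at a distance of 0.0574, Lamtor3, a subunit of the lysosomal Ragulator complex, at 0.0604, and Extl3, a glycosyltransferase of heparan sulfate synthesis, at 0.0701. Their changes were 0.35, 0.37 and 0.34.

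Other p53 targets came from 2 lists. Of 15 arrest and repair targets, 2 rose and 13 did not pass the test, with a median change of 0.08. That count is near the 9.2% called higher over all tested genes and is no result about this list. Cdkn1a, which encodes the CDK inhibitor p21, read 13.37, 13.51 and 13.32 under WT against 13.81, 13.77 and 13.76 under DM. It changed by 0.38 (SE 0.0771, limma adjusted p 0.012). Its call was lost without WT replicate 1 (0.37, adjusted p 0.0598) and without DM replicate 2 (0.38, adjusted p 0.0507), and it was 0.19 after quantile normalization. Plk2, a polo-like kinase of the stress response, read 9.58, 9.84 and 9.51 under WT against 10.35, 10.29 and 10.29 under DM. It changed by 0.67 (adjusted p 0.0027). Under quantile normalization Xpc and Gadd45a of this list were called lower, beside the 2 rises, so the list did not move in 1 direction.

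Of 15 death and metabolism targets, 4 rose, beside 9.2% of all tested genes called higher, and 11 did not pass the test, with a median change of 0.18. Sulf2, a heparan sulfatase, had the largest change, 0.84 (SE 0.171, limma adjusted p 0.0121). Gdf15, a stress-induced cytokine, changed by 0.72 (adjusted p 0.00381). Cd80, a costimulatory ligand of antigen-presenting cells, changed by 0.53 (adjusted p 0.0123). Abhd4, a lipid hydrolase, changed by 0.35 (adjusted p 0.0164), and lost its call without WT replicate 1 (0.35, adjusted p 0.061), DM replicate 1 (0.33, 0.0528) or DM replicate 2 (0.3, 0.0795). After quantile normalization the same 4 genes were called higher, and Apaf1 of this list was called lower. Fas, the death receptor, was at 9.23, 9.54 and 9.52 in WT and 9.62, 9.78 and 9.84 in DM, a change of 0.32 that did not pass (adjusted p 0.0588), and is named after its values were seen.

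Among 20 tested genes of the p53 family and its regulators, 2 rose and 1 fell, with a median change of 0.06. Over all tested genes 13.9% were called in either direction, so 3 of 20 is near the background and no result about this list. Hipk2, a kinase that phosphorylates p53, changed by 0.37 (limma adjusted p 0.0441). Ppp1r13b, which encodes the p53 cofactor ASPP1, changed by 0.31 (adjusted p 0.0189). Chek1, the S-phase checkpoint kinase, fell by 0.27 on the log2 scale (adjusted p 0.0457). No gene of this list stayed past the threshold when WT replicate 1, DM replicate 1 or DM replicate 2 was left out, and 1 did when DM replicate 3 was. After quantile normalization neither rise was called, and Chek1 and Rpl5, a ribosomal protein gene with many pseudogene copies, were called lower. Mdm4, the partner of MDM2, was at 11.6, 11.68 and 11.54 in WT and 11.55, 11.31 and 11.6 in DM, and the groups overlapped (adjusted p 0.388). Trp63 had a mean below 3 and was not tested.

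The proteins that BAX, PUMA and NOXA meet were read from 14 tested genes of the BCL2 family and the caspase pathway, of which 3 rose and none fell, with a median change of 0.12, beside 9.2% of all tested genes called higher and 4.71% lower. The 3 were the survival genes Bcl2l1 (0.46, limma adjusted p 0.00636), Bcl2 (0.35, adjusted p 0.0309) and Mcl1 (0.34, adjusted p 0.0349). After quantile normalization only Bcl2l1 was called. The same gene alone was called without WT replicate 1, WT replicate 3 or DM replicate 2, where Bcl2 was at 0.38, 0.32 and 0.37 (adjusted p 0.0699, 0.0678 and 0.0829) and Mcl1 at 0.31, 0.3 and 0.31 (0.136, 0.089 and 0.134). Mcl1 also lost its call without DM replicate 3 (0.31, 0.125) and Bcl2 without DM replicate 1 (0.26, 0.0922).

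**Figure D3:**
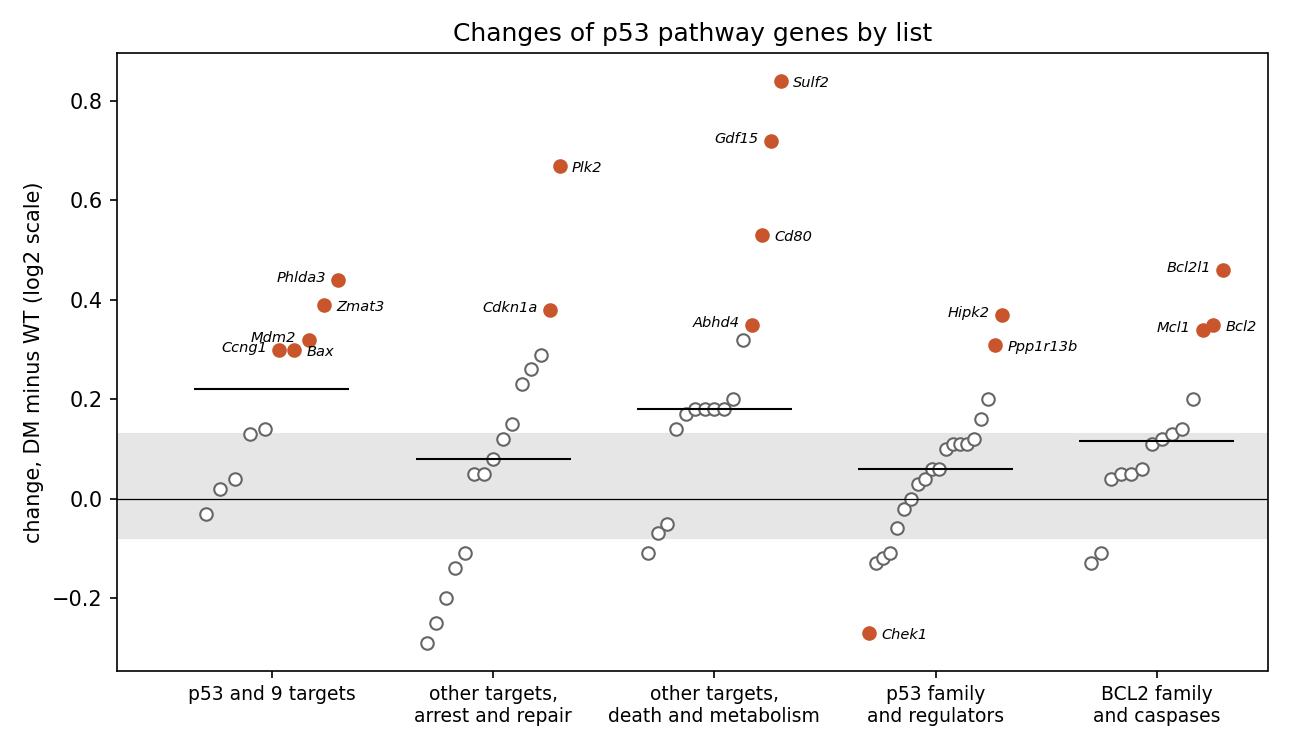
Change of every tested gene (DM minus WT, log2 scale) in the group of 10 and in 4 further lists of the pathway, sorted within each list, with filled points for a limma adjusted p under 0.05 and a line at the median of the list. The grey band is the interquartile range of all tested genes; medians run from 0.06 for the family and regulators to 0.22 for p53 and its 9 targets.

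The 2 groups also differed in marker genes of cell types and of proliferation, and these values stand beside the 5 rises. All ranges in this paragraph are rlog levels summed over a list on the linear scale and given as log2. Over all tested genes 9.2% were called higher in DM and 4.71% lower (limma, adjusted p under 0.05). In the lists of 10 or fewer genes, 1 or 2 calls in a direction are no result about the list. The 10 p53 genes summed to 14.64 to 14.82 in WT and 14.97 to 15.03 in DM. Of 10 stem and progenitor markers, the labelled cell type, 1 was called higher (Procr) and 2 lower (Myb and Flt3), and their sum was 16.21 to 16.41 in WT and 16.24 to 16.55 in DM. Of 12 monocyte and macrophage markers 10 were called higher in DM, and their sum was 18.26 to 18.96 in WT and 19.28 to 19.65 in DM. Of 12 neutrophil markers 11 were called lower, with sums of 18.53 to 18.98 and 17.01 to 17.88, and of 6 eosinophil markers 3 were called lower, with sums of 14.97 to 15.09 and 13.46 to 14.06. Of 20 proliferation genes 17 were called lower, with sums of 16.41 to 16.57 and 16.01 to 16.19. Of 10 mast cell and basophil markers 1 was called higher and 1 lower (18.75 to 19.11 and 18.77 to 19.23). Of 8 megakaryocyte markers 2 were called higher (14.23 to 14.49 and 14.51 to 14.89), of 8 tested erythroid markers none (12.67 to 12.78 and 12.42 to 12.77), and of 5 tested lymphoid markers 1 was called higher and 1 lower. No marker was listed at 0 in every library, and the T cell markers Cd3e and Cd3g were below the mean of 3. The part of these differences in the rises of Mdm2, Ccng1, Phlda3, Zmat3 and Bax was not tested.

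Scaling moved the balance of the whole comparison. Of the called genes, 66.1% were higher in DM as deposited and 51.3% after quantile normalization, which set the median change of the 10 genes at 0.09 in place of 0.22. Phlda3, Zmat3, Mdm2 and Bax kept their calls there, 4 of 10 against 7.26% of all tested genes called higher. With the minimum mean set at 5, the 5 calls were made where 15.5% of genes were called higher. Of the 10 genes only Phlda3 was called without WT replicate 1, where 3.28% of all tested genes were called higher, and only Zmat3 without DM replicate 2, where 3.19% were. Without DM replicate 1 or 3 the calls were Bax, Phlda3 and Zmat3.

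**Figure D4:**
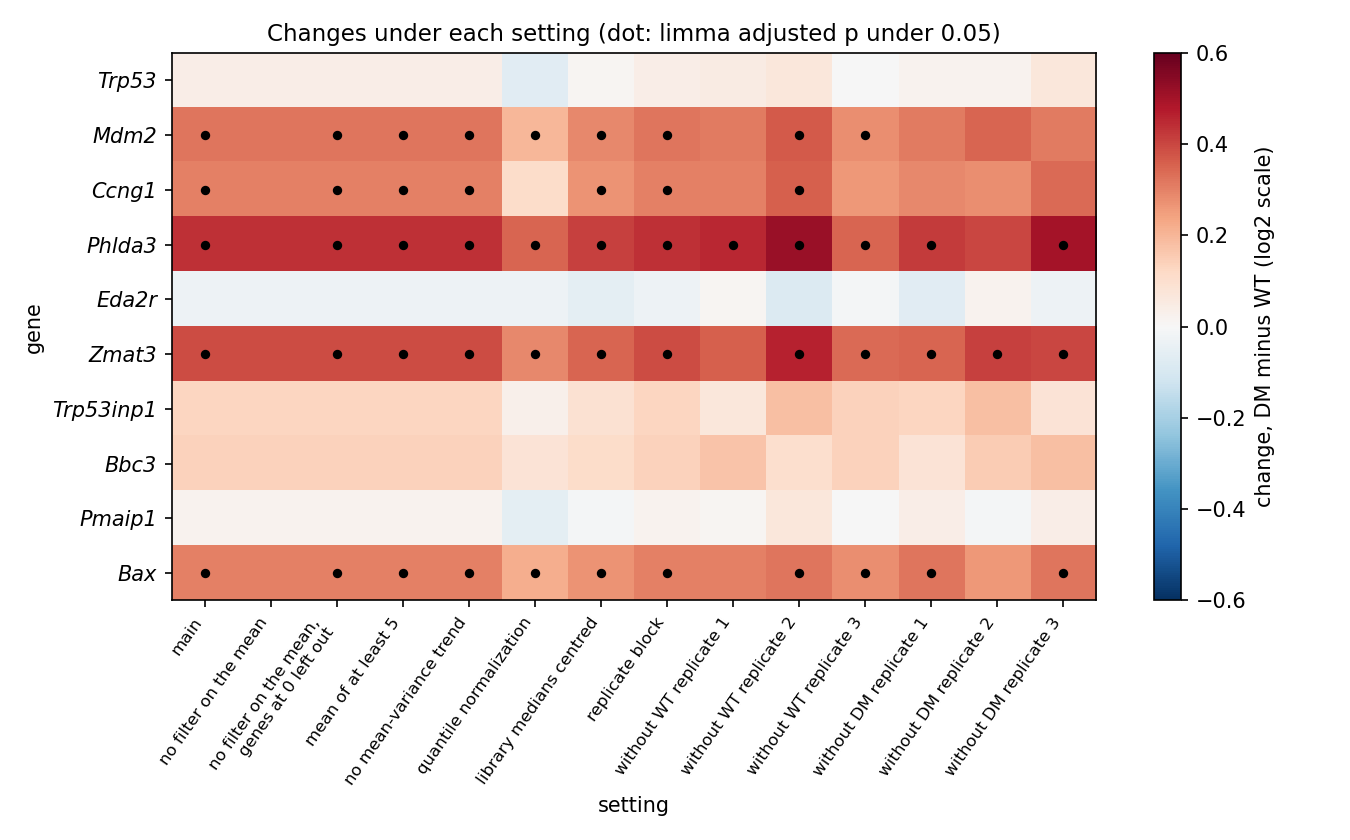
Change of each of the 10 genes (rows; DM minus WT, log2 scale, as colour) under the main setting and each alternative (columns), with a dot where the limma adjusted p was under 0.05. Phlda3, Zmat3, Mdm2, Ccng1 and Bax are above 0 in every column, from 0.11 to 0.52, while dots are missing from all genes without a filter on the mean and from 4 of the 5 without WT replicate 1 or DM replicate 2.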

How the data were processed

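The authors deposited 1 table of rlog values on the log2 scale for 6 RNA-seq libraries, 3 per group. Per the labels, the AllPrep kit was used for total RNA, and abundant transcripts were depleted. Per the submitters' processing notes, cutadapt 2.6, STAR 2.7.3 and DESeq2 1.30.0 were used with mm10. The counting tool, the use of strand and the annotation are not given in the sources used here. No header states the unit: the table's name and its fractional values, between -1.97 and 21.88, point to rlog.

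The 142699 lines were merged to 55487 genes, of which 97.9% matched GENCODE M21 on GRCm38, the source of gene coordinates. limma 3.58.1 in R 4.3.3 (lmFit, eBayes with a mean-variance trend) compared DM with WT over the 18766 genes whose mean was 3 or more. P-values were adjusted over all of them (Benjamini-Hochberg) and called under 0.05. A change is a difference of mean rlog values, and a fold is 2 to that power. The fit was also run on simulated data, drawn independently for each gene and library. Those data hold no shift shared by the genes of a library, so that run does not cover such shifts. Shrinkage of low values understates their changes, and without counts the depth and counting error are unknown. The 10 genes and the lists were chosen with earlier results of these data known. Text names the 10 genes, Mllt3, Kit, Cd34, Ptprc, up to 5 called genes per pathway list, and the 3 nearest profiles. Other genes were named after their values were seen. Lyz2, Mpo and Cpa3 were also named in this way. Alternatives were the filter, the variance trend, quantile normalization, centred medians, a replicate block and each library left out.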

Additional observations from a re-analysis of the deposited data

How the results depend on the processing

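Of 13 alternatives, the call of Ccng1 was lost in 7, of Mdm2 in 5, of Bax in 3 and of Phlda3 and Zmat3 in 2 each, and none of these 5 changed sign. With no filter on the mean, 138 genes were called in place of 2611, and 0 of the 10 p53 genes, 0 of the other arrest and repair targets, 0 of the death and metabolism targets, 0 of the family and regulators and 0 of the BCL2 family and caspase genes. When the genes at 0 in every library were also left out, an alternative chosen after seeing the data, 1799 genes and 5 of the 10 were called, with 0 family and regulator genes. Arrest and repair calls went from 2 to 4 with a minimum mean of 5, all 4 higher, and to 4 after quantile normalization or with library medians centred, where the 2 added (Xpc and Gadd45a) were lower. BCL2 family and caspase calls went from 3 to 1 after quantile normalization. The cause was not tested.

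With single libraries left out, counts ran from 1119 to 3475 over all genes (WT replicate 1 left out 1185, DM replicate 2 left out 1119, DM replicate 3 left out 1537) and from 1 to 5 for the p53 genes. They ran from 1 to 4 for arrest and repair, 3 to 6 for death and metabolism, 0 to 3 for family and regulators, and 1 to 3 for BCL2 family and caspase genes. Changes near 0 turned sign. Trp53 went to -0.07 after quantile normalization, and with single libraries left out it ran from -0.00109 (no WT replicate 3) to 0.07. Eda2r ran from -0.08 to 0.02, above 0 when WT replicate 1 (0.01) or DM replicate 2 (0.02) was left out. Pmaip1 went to -0.06 after quantile normalization and -0.01 with medians centred, and ran from -0.01 (no DM replicate 2) to 0.07, with -0.00146 when WT replicate 3 was left out.

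The main fit had no block because the labels state none. Deviations of same-numbered libraries correlated at 0.49, 0.12 and 0.04 over genes, and not every library correlated best with its own number. WT replicate 1 was at -0.34 and -0.16 with DM replicates 2 and 3. These values do not settle whether the numbers mark pairs. With the replicate number as a block, 3742 genes and 5 of the 10 p53 genes were called, and 5 arrest and repair targets (3 higher, 2 lower), 5 death and metabolism targets, 4 family and regulator genes and 3 BCL2 family and caspase genes. Depth could not be weighed without counts.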
